A study of Mus musculus with 64 samples.

Results

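Mice that carry the Q140 huntingtin allele and are also labelled Polq+/- were set against Q140 mice with no Polq label, in the striatum only. The members were taken from the sample titles, as 8 libraries labelled Q140 Polq+/- and 8 libraries labelled Q140, or 16 of the 64 libraries in the series. The question was whether a lower dose of Polq shifts the state that Q140 brings about in this tissue, and by how much at most. All mice were C57BL/6 and 6 months old. Both groups carried the Q140 knock-in on 1 of the 2 huntingtin copies, and the Q140 Polq+/- mice were labelled as having 1 intact copy of Polq besides. Each group had 4 females and 4 males, each library came from a separate mouse, and what the Polq allele removes is not stated in the labels. The other striatal libraries, 8 labelled Polq+/- and 8 labelled wild type, entered the fit as a source of the spread and are used below only where named.

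Huntington's disease is caused by an expanded CAG tract in the huntingtin gene. The spiny projection neurons of the striatum, which form its output along a direct and an indirect pathway, are the cells the disease affects first. In knock-in mice such as Q140 the expanded tract sits in the mouse gene itself, and genes that mark mature spiny neurons lose expression with age. The product of Polq, DNA polymerase theta, joins broken ends at short stretches of matching sequence (theta-mediated end joining), a repair route used when the classical end joining and recombination routes are not.

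Total gene counts ran from 31.3 to 40.6 M in the libraries labelled Q140 Polq+/- (median 34.0 M) and from 28.7 to 34.5 M in those labelled Q140 (median 33.3 M). Within a group, log2 CPM (counts per M, here before TMM scaling) of any 2 libraries correlated at 0.990 to 0.996. These correlations were over the 16337 genes with at least 10 counts in all 16 libraries. The tissue matched its label: the spiny neuron gene Ppp1r1b had 1737 to 1994 CPM before TMM scaling, where the cortex of the same mice had 76.4 to 90.8, and the cortical neuron gene Slc17a7 had 2.06 to 4.67 CPM, where cortex had 1187 to 1389. Xist, the only gene linked to sex that was checked, lay on the side of its median that matches the labelled sex in 16 of 16 libraries. Among the other striatal libraries, 3 stand apart from their groups (wild-type male 2 and male 3, Polq+/- female 3), and they touch the comparison only through the estimate of the spread: without them the same 10 genes were called. In bulk tissue, fewer cells of a type and less RNA per cell cannot be told apart.

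Polq (ENSMUSG00000034206) lies on the plus strand of chromosome 16, from 37011786 to 37095417 on GRCm38. The libraries labelled Q140 Polq+/- had 0.187 CPM at the lowest, 1.81 at the median and 2.36 at the highest, against 2.24, 3.25 and 3.50 CPM in those labelled Q140. The 2 groups overlapped only through Q140 Polq+/- male 4 at 2.36 CPM and Q140 female 3 at 2.24 CPM. The 8 mice labelled Q140 Polq+/- did not form an even group: female 3, female 4 and male 3 had 0.299, 0.187 and 0.245 CPM, and the other 5 had 1.65 to 2.36 CPM. The cortex of the same 3 mice was lowest too, at 0.375, 0.414 and 0.447 CPM, against 1.12 to 1.93 CPM in the other 5 mice of that label. The level of these 3 mice goes against the label of 1 intact copy as the other 5 show it, so the labels are kept as labels and results are also given without the 3 mice. Polq averaged 1.35 ± 0.939 CPM in libraries labelled Q140 Polq+/- and 3.10 ± 0.409 CPM in libraries labelled Q140 (SD, n = 8 each). The log2 fold change was -1.18 (SE 0.33), or 0.442 times the Q140 level with a 95% interval of 0.276 to 0.706. Polq had few counts, 6 to 120 per library, and it did not pass edgeR's quasi-likelihood test after Benjamini-Hochberg adjustment over all genes (unadjusted p = 0.00131, adjusted p = 0.926). Without the 3 mice the log2 fold change was -0.61. Htt, the gene that carries the Q140 tract, differed by less than the spread within the groups, at 198.7 ± 6.33 CPM in libraries labelled Q140 Polq+/- and 197.6 ± 5.92 CPM in those labelled Q140, a log2 fold change of 0.0076 (SE 0.056, adjusted p = 1 in edgeR).

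The gene next to Polq on the minus strand, Fbxo40 (ENSMUSG00000047746, 36963460 to 36990467), starts 0.0213 Mb away and points the opposite way. Of the genes called in the comparison it changed the most, so the 300 bases around both starts (250 before and 50 after) are shown, from RefSeq on GRCm38.p6. The capitals mark E-boxes, searched as CANNTG on both strands. The Polq window is chr16:37011536-37011835 on the plus strand, and the Fbxo40 window is chr16:36990418-36990717 on the minus strand.
Polq: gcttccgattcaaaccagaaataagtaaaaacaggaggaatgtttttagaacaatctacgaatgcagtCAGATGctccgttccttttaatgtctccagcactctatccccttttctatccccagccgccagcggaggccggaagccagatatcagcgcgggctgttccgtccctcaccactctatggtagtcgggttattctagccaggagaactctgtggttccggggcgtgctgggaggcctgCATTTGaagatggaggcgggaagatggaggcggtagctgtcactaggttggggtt
Fbxo40: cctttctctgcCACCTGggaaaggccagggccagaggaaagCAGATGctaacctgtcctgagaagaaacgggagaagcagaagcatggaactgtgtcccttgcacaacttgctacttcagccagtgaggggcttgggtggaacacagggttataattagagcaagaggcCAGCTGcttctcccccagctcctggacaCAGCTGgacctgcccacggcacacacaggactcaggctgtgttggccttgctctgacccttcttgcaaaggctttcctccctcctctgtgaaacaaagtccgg
The Polq window held 2 E-boxes and 14 CG dinucleotides, and the Fbxo40 window held 4 E-boxes and 3 CG dinucleotides. Of 32851 promoter windows of this length, 72.3% held an E-box, and the median window held 7 CG dinucleotides. Neither window held TATAAA or CCAAT, which 13.6% and 37.4% of all windows did on either strand. The table also holds a second Fbxo40 start, which is not shown.

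Across 18270 tested genes, 10 were called at an adjusted p under 0.05 in edgeR (0.0547% of those tested), 5 of them higher (0.0274%) and 5 lower (0.0274%) in libraries labelled Q140 Polq+/-. All 10 lie on chromosome 16, between 34745210 and 57071372, a span of 22.3 Mb that also holds Polq and in which 108 genes were tested. At an unadjusted p under 0.05 there were 611 genes (3.34%). With an adjusted p under 0.1 the count was 11, the added gene being Gm7887 on chromosome 6. DESeq2 called 12 genes, the same 10 with Gm7887 and Abi3bp, which lies on chromosome 16 too.

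Fbxo40 is a muscle F-box protein that in muscle marks the insulin receptor substrate Irs1 for degradation. Libraries labelled Q140 Polq+/- had 4.12, 5.03 and 9.29 CPM (lowest, median, highest), and libraries labelled Q140 had 0.273, 0.408 and 0.648 CPM. The groups lay far apart, and the log2 fold change was 3.76 (SE 0.232, adjusted p = 1.26e-12 in edgeR), a 13.6-fold higher level with an interval of 9.77 to 18.8. The 3 mice of lowest Polq had 8.48, 5.76 and 9.29 CPM and the other 5 had 4.12 to 5.55 CPM, so the 3 were the highest of the group. Without them the log2 fold change was 3.41.

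Mylk encodes the myosin light chain kinase of smooth and non-muscle cells and lies 2.27 Mb below the Polq start. It had 15.7, 18.4 and 28.8 CPM in libraries labelled Q140 Polq+/-, against 7.63, 8.11 and 8.80 CPM in those labelled Q140. Its log2 fold change was 1.35 (SE 0.117, adjusted p = 1.6e-08 in edgeR). Again the 3 mice of lowest Polq were highest, at 28.8, 27 and 25 CPM, and the other 5 lay at 15.7 to 19.2 CPM. Without the 3 mice it was 1.08.

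Cd47, a surface protein that signals to phagocytes through the receptor SIRP alpha, lies 12.8 Mb above the Polq start. It had 217, 234 and 280 CPM in libraries labelled Q140 Polq+/- and 180, 188 and 194 CPM in libraries labelled Q140, and no values overlapped. The log2 fold change was 0.38 (SE 0.050, adjusted p = 3.7e-05 in edgeR). Ccdc80, which encodes a secreted protein of the extracellular matrix, had 4.8, 6.08 and 7.72 CPM in libraries labelled Q140 Polq+/- and 3.21, 3.91 and 4.58 CPM in those labelled Q140 (log2 fold change 0.68, SE 0.092, adjusted p = 3.7e-05 in edgeR). Tmem45a2, the fifth higher gene, was near the detection limit, at 0.351 ± 0.116 CPM in libraries labelled Q140 Polq+/- and 0.117 ± 0.0529 CPM in those labelled Q140 (SD, n = 8 each). It was the only called gene whose groups overlapped, and its name marks it as a copy related to Tmem45a, so reads between the copies may be split.

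Of the 5 lower genes, Sema5b, a transmembrane semaphorin of axon guidance 1.47 Mb below the Polq start, changed the most. It had 14.4, 20.4 and 22.3 CPM in libraries labelled Q140 Polq+/-, against 25.5, 27.3 and 33.3 CPM in libraries labelled Q140 (log2 fold change -0.60, SE 0.091, adjusted p = 0.000711 in edgeR). The 3 mice of lowest Polq were lowest here, at 14.5, 14.4 and 14.5 CPM, and the other 5 lay at 20.3 to 22.3 CPM.

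The other 4 lower genes changed by less than Sema5b. Cep97, a centrosomal protein that holds back cilium assembly, had 28.4, 34.1 and 35.1 CPM in libraries labelled Q140 Polq+/- and 37.6, 42.3 and 43.7 CPM in those labelled Q140 (log2 fold change -0.37, SE 0.050). Slc35a5, of the nucleotide sugar transporter family, had 35.6, 38.8 and 40.4 CPM in libraries labelled Q140 Polq+/- and 42.7, 45.7 and 51.4 CPM in those labelled Q140 (-0.27, SE 0.039). Pcnp, a nuclear protein with a PEST sequence, had 49.3, 54.3 and 59.5 CPM in libraries labelled Q140 Polq+/- and 61.0, 62.4 and 68.5 CPM in those labelled Q140 (-0.23, SE 0.035). Cd200, whose protein restrains myeloid cells through the receptor Cd200r, had 56.7, 60.2 and 65.5 CPM in libraries labelled Q140 Polq+/- and 68.1, 68.9 and 72.5 CPM in those labelled Q140 (-0.19, SE 0.036, adjusted p = 0.00935 in edgeR). None of these 4 genes overlapped between the groups. Without the 3 mice of lowest Polq, 9 of the 10 genes were called and Cd200 was not (adjusted p = 0.131 in edgeR).

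**Figure D1:**
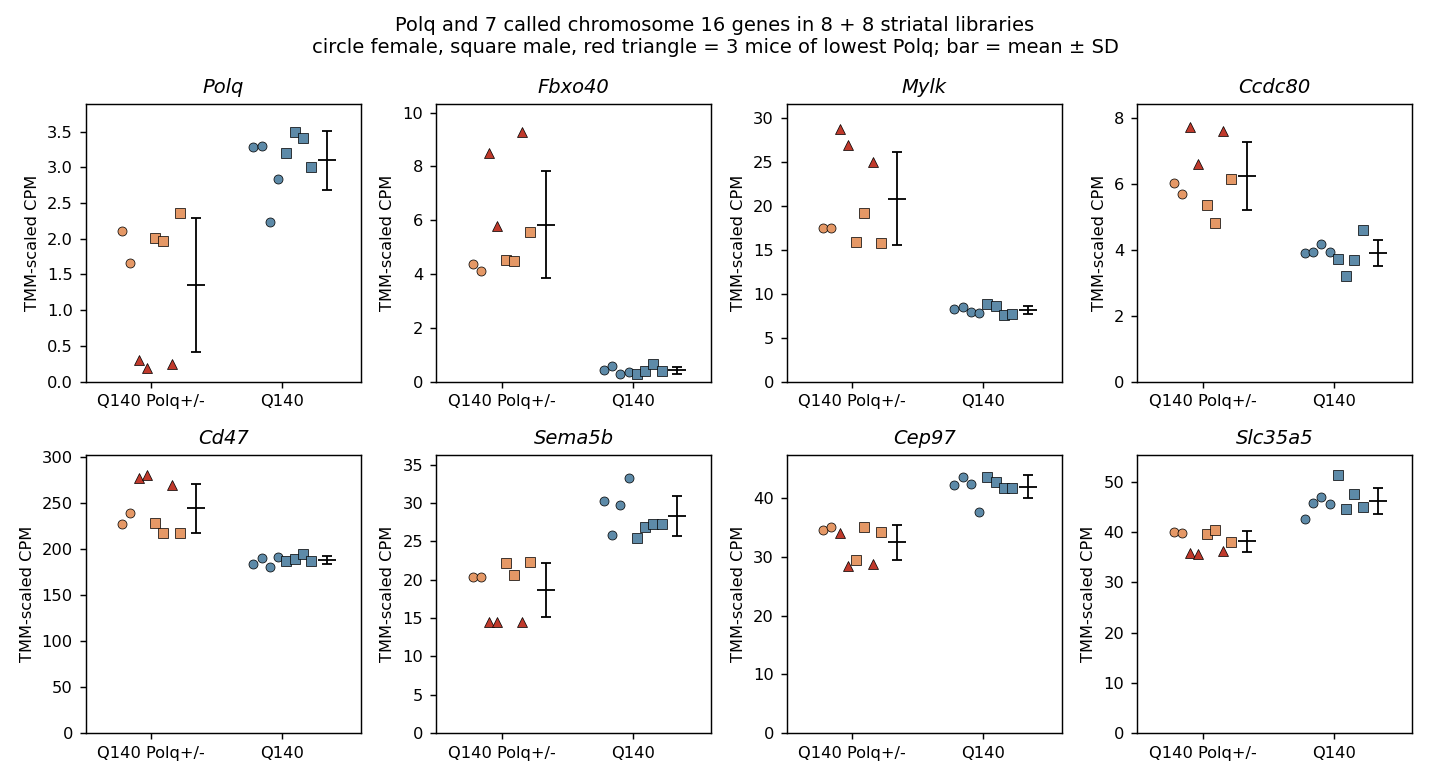
TMM-scaled CPM (y axis, from 0) of Polq and 7 called chromosome 16 genes in the 8 libraries labelled Q140 Polq+/- (left) and the 8 labelled Q140 (right), with circles for females, squares for males, red triangles for the 3 mice of lowest Polq and bars for mean ± SD. The red triangles are the lowest points for Polq and Sema5b and the highest for Fbxo40, Mylk, Cd47 and Ccdc80, and for the 7 called genes the groups do not overlap.

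Groups of 8 that did not overlap were found for 11 of all tested genes (0.0602%), of which 9 were called. The other 2, named because the count is small, were Vstm5 on chromosome 9 and Pgk1-rs7 on chromosome 12. Vstm5, a membrane protein, had 14.6, 15.7 and 17.0 CPM in libraries labelled Q140 Polq+/- and 12.7, 13.9 and 14.4 CPM in those labelled Q140 (log2 fold change 0.18, SE 0.053, adjusted p = 0.926 in edgeR). Its difference between the libraries labelled Polq+/- and wild type was -0.0095. Gm7887, a predicted gene on chromosome 6, had 16.6, 18.3 and 21.8 CPM in libraries labelled Q140 Polq+/- and 15.1, 15.9 and 17.3 CPM in those labelled Q140 (0.22, SE 0.048, adjusted p = 0.088 in edgeR). The other genes of smallest p with at least 1 CPM were Ttc34, Dubr, Pcdhb7 and Zfp395 on the higher side, with log2 fold changes of 0.18 to 0.41, and Gm5914, Myh15, Cpox and Pcsk1 on the lower side, with log2 fold changes of -0.56 to -0.15. None was called in edgeR (adjusted p of 0.131 for Ttc34 and above for the others), and Dubr, Myh15 and Cpox lie on chromosome 16.

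Position on chromosome 16 was then set beside the values. Within 10 Mb of the Polq start 134 genes were tested, of which 6 were called and 18 (13.4%) had an unadjusted p under 0.05. Beyond 10 Mb there were 18135 genes, with 4 called and 592 (3.26%) at that p. The 4 called beyond 10 Mb were Cd47, Cep97, Pcnp and Tmem45a2, at 12.8 to 20.1 Mb above Polq on the same chromosome. Within 10 Mb of Htt on chromosome 5, where both groups carry the same Q140 allele, 0 of 193 genes were called in edgeR and 6 (3.11%) had an unadjusted p under 0.05. Called genes went both ways within 10 Mb of Polq, 3 higher and 3 lower, so the unsigned log2 fold change is given too: its median was 0.043 there and 0.039 beyond 10 Mb. The nearest tested gene on the other side, Stxbp5l, a regulator of vesicle release, had 63.2 ± 2.63 CPM in libraries labelled Q140 Polq+/- and 64.2 ± 2.35 CPM in those labelled Q140 (-0.024, SE 0.079). Just outside the threshold on chromosome 16 was Abi3bp, which encodes a matrix protein, at 10.3 ± 2.33 CPM in libraries labelled Q140 Polq+/- and 15.1 ± 2.29 CPM in libraries labelled Q140 (-0.55, SE 0.12, adjusted p = 0.113 in edgeR). In the cortex of the same mice Abi3bp differed in the opposite direction (log2 fold change 0.94, adjusted p = 0.0476 in edgeR).

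**Figure D2:**
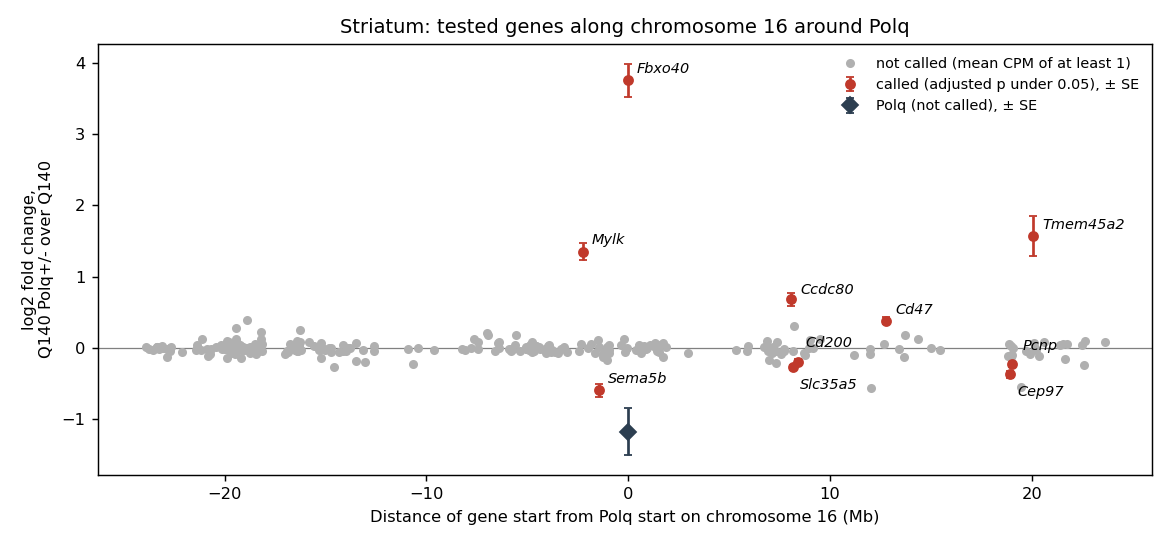
Log2 fold change of libraries labelled Q140 Polq+/- over those labelled Q140 (y axis) against the distance of each gene's start from the Polq start in Mb (x axis), with ± SE for the 10 called genes (red) and Polq (diamond) and grey points for genes not called with a mean of at least 1 CPM. Called genes stretch from 2.27 Mb below to 20.1 Mb above Polq, and most grey points among them lie near 0.

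Striatal libraries labelled Polq+/- and wild type, which lack Q140 and share no library with the comparison above, gave the same difference of label in other mice. There too 1 mouse stood apart in Polq: striatal Polq was 0.376 CPM in Polq+/- male 3 and 1.31 to 2.42 CPM in the other 7 of that label, and cortical Polq was 0.602 CPM in the same mouse and 1.20 to 1.38 CPM in the others. The same mouse was highest of its label for Fbxo40, at 8.52 CPM in striatum and 8.92 CPM in cortex. In striatum 9 of 18270 genes were called (0.0493%), with 924 (5.06%) at an unadjusted p under 0.05, and 8 of the 10 genes were among them, all 10 with the same sign. Fbxo40 had 5.02 ± 1.54 CPM in libraries labelled Polq+/- and 0.274 ± 0.134 CPM in wild type (log2 fold change 4.17, SE 0.248), and Mylk had 17.5 ± 3.16 CPM in libraries labelled Polq+/- and 8.08 ± 0.644 CPM in wild type (1.11, SE 0.117). Slc35a5 and Cd200 were the 2 not called without Q140, at -0.18 (adjusted p = 0.114) and -0.068 (adjusted p = 0.938 in edgeR). Without the 3 libraries that stand apart, 4 genes were called there (0.0218%), namely Fbxo40, Mylk, Cd47 and Ccdc80, and all 10 kept their sign. Without Polq+/- male 3, 6 genes were called (0.0326%), namely the same 4 with Tmem45a2 and Pcnp, all 10 kept their sign, and Cep97 (adjusted p = 0.0682) and Sema5b (adjusted p = 0.07 in edgeR) no longer passed. Whether the difference by Polq label itself differed with and without Q140 was tested as an interaction over all genes: 0 genes were called in edgeR (the smallest adjusted p was 0.996), and 893 had an unadjusted p under 0.05.

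Across genes, which are not independent replicates and whose values come from 1 fit, the log2 fold changes of the Polq label with and without Q140 correlated at a Pearson's r of 0.927 and a Spearman's rho of 0.276 over the 134 genes within 10 Mb of Polq. Beyond 10 Mb they correlated at an r of 0.062 and a rho of -0.028 over 18135 genes. Within 10 Mb, r gives weight to the largest values, those of Fbxo40 (3.76 with Q140 and 4.17 without) and Mylk (1.35 and 1.11). The median unsigned log2 fold change there, with Q140, was 0.043. An r without these genes was not computed, so it does not speak for the region as a whole.

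In the cortex of the same mice, 9 of the 10 genes were tested, all 9 had the sign seen in striatum and 5 were called, among 10 of 18116 genes called there (0.0552%). Fbxo40 had 7.33 ± 2.79 CPM in cortex labelled Q140 Polq+/- and 0.243 ± 0.055 CPM in cortex labelled Q140 (log2 fold change 4.89, SE 0.284, adjusted p = 1.71e-12 in edgeR). Mylk was higher by less in cortex, at 17.7 ± 1.44 CPM in Q140 Polq+/- and 14.2 ± 0.812 CPM in Q140 (0.32, SE 0.059, adjusted p = 0.00692 in edgeR). The difference between the tissues was not tested.

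**Figure D3:**
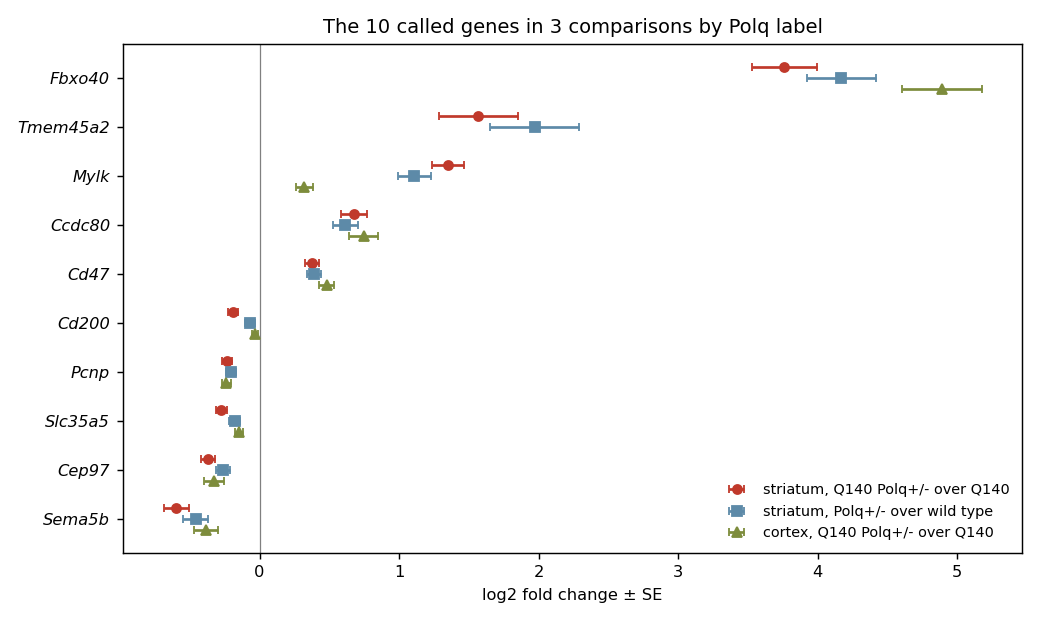
Log2 fold change ± SE (x axis) of the 10 called genes in the striatum of mice labelled Q140 Polq+/- over Q140 (red circles), in the striatum of mice labelled Polq+/- over wild type (blue squares) and in the cortex of mice labelled Q140 Polq+/- over Q140 (green triangles). Each gene keeps its side of 0 in every comparison it was tested in, and Tmem45a2 was not tested in cortex.

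The Q140 state itself was taken from all 16 striatal libraries of Q140 carriers against the 16 non-carriers, with no term for Polq. There 8230 genes were called (45%), 4319 higher and 3911 lower in carriers. A shift of that state by the Polq label would move rises down and falls up in libraries labelled Q140 Polq+/-, or the reverse. Of the 4319 Q140 rises, 3 were called lower and 0 higher, and their median log2 fold change by Polq label was -0.0052. Of the 3911 Q140 falls 0 were called in edgeR, and their median was 0.0020. DESeq2 called 1 fall, Abi3bp, which was lower still in libraries labelled Q140 Polq+/-. The median over all tested genes was -0.00094. The shares at an unadjusted p under 0.05 were 3.45% of the rises and 3.63% of the falls, beside 3.34% of all genes.

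The 3 Q140 rises called lower were Cep97, Pcnp and Cd200, all on chromosome 16. Cd200 stood at 60.8 ± 2.93 CPM in libraries labelled Q140 Polq+/-, 69.4 ± 1.44 in those labelled Q140, 44.2 ± 1.1 in those labelled Polq+/- and 46.3 ± 3.82 in wild type (SD, n = 8 each). Its difference by label was thus -36.8% of its Q140 effect (interval -50.8% to -22.9%), a return toward non-carriers. The Q140 effect of Cd200 was a log2 fold change of 0.52, and its interaction was not called (-0.12, adjusted p = 0.996 in edgeR). Cep97 had 32.5 ± 3.01 CPM in libraries labelled Q140 Polq+/- and 42.0 ± 1.92 in those labelled Q140, but also 26.4 ± 2.33 in those labelled Polq+/- and 31.7 ± 1.37 in wild type, so its lower level with the Polq label was seen in both backgrounds.

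Among the strongest Q140 responses edgeR called none. The 47 rises of more than 2-fold had a median log2 fold change by Polq label of -0.0070 and the 102 falls of more than 2-fold a median of 0.080, against a median Q140 effect of 1.25 and -1.46. Of these 47 rises 23 were higher and 24 lower in libraries labelled Q140 Polq+/-, and 3 (6.38%) had an unadjusted p under 0.05. Of the 102 falls 67 were higher, which is toward non-carriers, and 35 lower, and 8 (7.84%) had an unadjusted p under 0.05. Over all 3911 falls 2028 were higher and 1883 lower, and over all tested genes 8984 were higher and 9286 lower. The split of the 102 falls was not tested. These falls were chosen with the 3 libraries that stand apart included, and among them is Cbln3, whose fall was not seen without wild-type male 2. The split was not counted without those libraries. Sfmbt2, a Polycomb group gene and the largest named rise, had 8.05, 9.45 and 12.6 CPM in libraries labelled Q140 Polq+/- and 7.89, 9.49 and 10.6 CPM in those labelled Q140, where libraries labelled Polq+/- had 2.05 to 2.89 and wild type 1.35 to 3.40 CPM. Both Q140 groups covered the same range, with a difference of 0.027 (interval -0.17 to 0.22). Gpx6, a glutathione peroxidase, had 1.1, 1.69 and 2.86 CPM in libraries labelled Q140 Polq+/- and 1.71, 2.03 and 2.62 CPM in those labelled Q140, where the groups without Q140 had 7.68 to 17.6 CPM. Its difference was -0.18 (interval -0.48 to 0.11).

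Ddit4l, an inhibitor of mTOR signalling, is a strong fall with a narrow interval. It had 7.47, 9.12 and 10.2 CPM in libraries labelled Q140 Polq+/- and 8.12, 8.92 and 10.4 CPM in those labelled Q140, where libraries labelled Polq+/- had 34.1 to 47.3 and wild type 34.8 to 48.1 CPM. The log2 difference by Polq label was 0.0041 (interval -0.15 to 0.16), beside a Q140 effect of -2.16. As a share of the Q140 effect it was -0.19%, with an interval from a return of 7.44% (-7.44%) to a further fall of 7.05%.

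The other named rises, all at an adjusted p of 1 in edgeR, were Tmc3, Ttn, Dsp, Rprm, Fam196b, Adamts19, Tnnt2, Ipcef1 and Vwa5b2, with differences by Polq label between -0.22 (Ttn) and 0.094 (Vwa5b2). The other named falls were Wnt8b, Mafa, Sec14l3, Cpne9, Dgat2l6, Phex, Egr2 and Cbln3. Wnt8b, a Wnt ligand, had the largest point difference of these, at 0.635 ± 0.278 CPM in libraries labelled Q140 Polq+/- and 0.451 ± 0.212 CPM in those labelled Q140 (0.48, interval -0.16 to 1.11). Cbln3, a cerebellar granule cell gene, had 0.109 to 0.623 CPM in Q140 carriers, 60.7 CPM in wild-type male 2 and 0.0821 to 0.331 CPM in the other 15 non-carriers. Its Q140 effect was -3.09 with wild-type male 2 and 0.80 without that library alone.

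Genes of spiny neuron identity did not pass the test between the groups. Of 26 tested genes shared by both spiny neuron types, 0 were called in edgeR and 1 had an unadjusted p under 0.05, with a median difference of 0.023 beside a median Q140 effect of -0.48. Their differences ran from -0.052 to 0.087, with 19 higher and 7 lower in libraries labelled Q140 Polq+/-. The 7 tested indirect pathway genes had a median of 0.020 (Q140 effect -0.64) and the 9 direct pathway genes a median of -0.0090 (Q140 effect -0.19), with 0 called in either. Differences of the indirect pathway genes ran from -0.020 to 0.21, with 6 higher and 1 lower, and 1 was higher at an unadjusted p under 0.05. Those of the direct pathway genes ran from -0.063 to 0.085, with 3 higher and 6 lower, and 0 at that p.

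Penk, the enkephalin precursor of the indirect pathway, had 768, 813 and 839 CPM in libraries labelled Q140 Polq+/- and 719, 833 and 900 CPM in those labelled Q140, so the first lay inside the range of the second. Its difference was -0.020 (interval -0.11 to 0.070), or 1.69% of its Q140 effect (interval -5.78% to 9.16%). Drd1, the dopamine receptor of the direct pathway, had 242 ± 11.9 CPM in libraries labelled Q140 Polq+/- and 244 ± 11.6 CPM in those labelled Q140, a difference of -0.0090. Drd2, that of the indirect pathway, had 169 ± 7.02 CPM in libraries labelled Q140 Polq+/- and 167 ± 7.28 CPM in those labelled Q140, a difference of 0.016. As shares of their Q140 effects these were 1.46% (interval -10.6% to 13.5%) for Drd1 and -2.72% (interval -14.9% to 9.51%) for Drd2.

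The remaining spiny neuron genes named did not pass the test either. Adora2a, the adenosine receptor of the indirect pathway, differed by 0.068 (interval -0.029 to 0.17), the sodium channel subunit Scn4b by 0.086 (interval -0.040 to 0.21) and the phosphodiesterase Pde10a by 0.056 (interval -0.057 to 0.17). As shares of the Q140 fall, returns of up to 20.2%, 18.9% and 20.9% were thus inside the intervals (-20.2% for Adora2a, -18.9% for Scn4b, -20.9% for Pde10a), and a full return was not. Ppp1r1b, the dopamine-regulated phosphatase inhibitor DARPP-32, differed by 0.024 (interval -0.055 to 0.10), and Arpp21, a cAMP-regulated phosphoprotein, by -0.052 (interval -0.14 to 0.037). Tac1, the substance P precursor, changed little with Q140 (0.11), so a share of that effect has no useful bound.

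**Figure D4:**
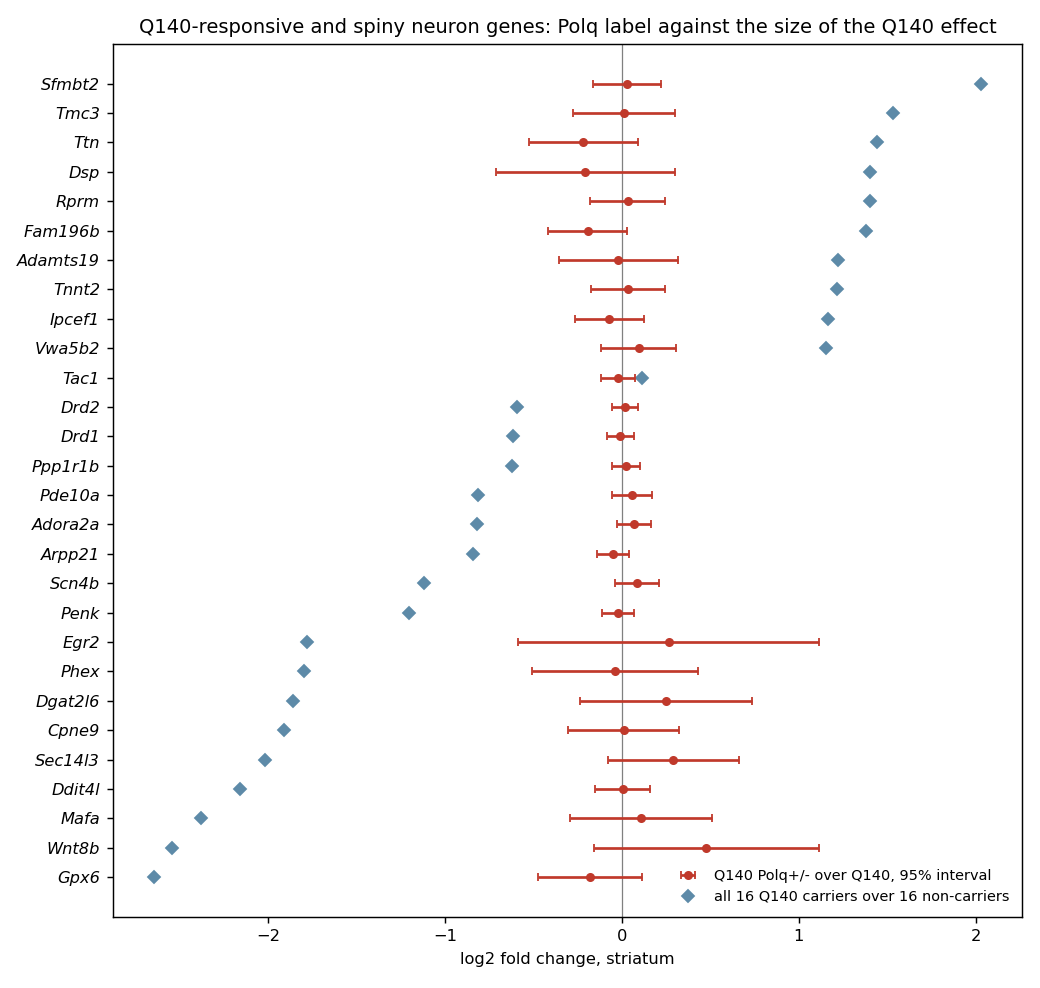
Log2 fold changes in striatum (x axis) for 28 named genes, with red points and 95% intervals for libraries labelled Q140 Polq+/- over Q140 and blue diamonds for all 16 Q140 carriers over 16 non-carriers. Cbln3 is left out because its fall was not seen without wild-type male 2. Red points stay within 0.48 of 0 while the diamonds reach 2.03 and -2.65.

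A single score then gave 1 value per mouse. It used the 200 genes of smallest p for carriers against non-carriers (40 rises and 160 falls). With the sign of the Q140 effect, it averaged the log2 CPM of each library relative to the wild types of its sex. That choice took the 2 Q140 groups as 1, so a gene that differed between them was less likely to enter the 200. The score bounds a shift over the chosen genes only. The libraries labelled Q140 Polq+/- scored 0.716 at the lowest, 0.739 at the median and 0.812 at the highest, and those labelled Q140 scored 0.687, 0.762 and 0.843. Libraries labelled Polq+/- scored -0.053 to 0.022 and wild types -0.070 to 0.069, far from both. The first range lay inside the second, and the means were 0.745 ± 0.0303 in Q140 Polq+/- and 0.763 ± 0.0482 in Q140 (SD, n = 8 each). The difference was -0.018, with an interval of -0.059 to 0.022 (two-sided exact test over the 4900 ways to permute the 2 labels within each sex, p = 0.351, with the 95% interval from inverting that test). Carriers and non-carriers differed by 0.758, so the difference by Polq label was -2.38% of the Q140 effect, with an interval of -7.74% to 2.94%. A return of more than 7.74% of the Q140 score therefore lay outside the interval (-7.74% at its lower end), as did an increase of more than 2.94%. Those limits move with single libraries: with 1 library left out at a time the lower one ran from -8.88% to -5.97% and the upper one from 1.40% (without Q140 male 3) to 3.93%, with 1.66% without Q140 Polq+/- female 2. Other choices of genes put the lower limit between -9.05% (500 genes) and -5.37% (rises alone). The upper limit lay between 1.86% (rises alone) and 4.67% (genes chosen in the opposite sex, from Q140 and wild-type libraries only). In females alone the interval was -15.7% to 9.47% of the Q140 effect, and in males alone -11.5% to 8.73%. The 3 mice of lowest Polq scored 0.722, 0.741 and 0.725, within the range of the other 5, and without them the difference was -0.0041 (interval -0.056 to 0.047, exact permutation p = 0.861), or an interval of -7.33% to 6.20% of the Q140 effect.

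**Figure D5:**
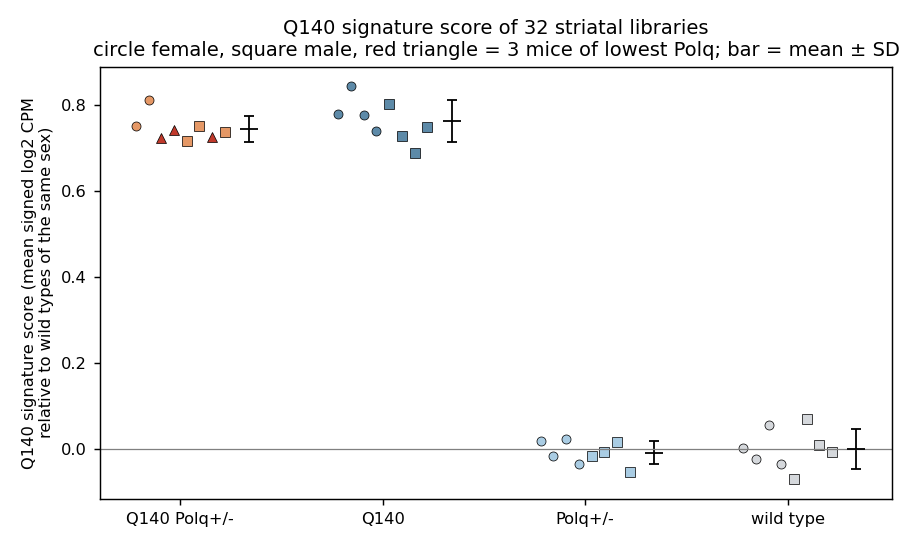
Q140 signature score (y axis, mean signed log2 CPM over 200 genes relative to wild types of the same sex) of all 32 striatal libraries in the groups Q140 Polq+/-, Q140, Polq+/- and wild type, with circles for females, squares for males, red triangles for the 3 Q140 Polq+/- mice of lowest Polq and bars for mean ± SD. Both Q140 groups lie between 0.687 and 0.843, and both groups without Q140 lie between -0.070 and 0.069.

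The score averages over genes, so bounds were also set gene by gene. Among 15246 genes with a mean of at least 1 CPM, the 95% interval of the difference by Polq label lay inside ±0.25 on the log2 scale (1.19-fold) for 77.7%, inside ±0.5 (1.41-fold) for 96.6% and inside ±1 (2-fold) for 99.7%. The median half-width was 0.104, or 7.47%. With intervals widened to hold for all tested genes at the same time (Bonferroni), 31.1%, 72.3% and 95.1% of genes lay inside those limits. Counts therefore limit what can be said of low genes: over all 18270 tested genes 83.7% of gene-wise intervals lay inside ±0.5. Point differences beyond 0.5 were seen for 19 genes of at least 1 CPM, of which 4 were called: Fbxo40, Mylk, Ccdc80 and Sema5b.

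The same intervals bound a return toward non-carriers. The Q140 effect here is taken against all non-carriers, the 3 libraries that stand apart among them. It is that of all 16 carriers, the 8 libraries labelled Q140 Polq+/- among them. A gene that returned in those 8 would show a smaller effect and could miss the limits below, so the counts cannot speak for such genes. Of the 149 genes that Q140 changed by 2-fold or more, 113 (75.8%) had an interval that excluded a return of 50% or more of that effect. For 141 (94.6%) the interval excluded a return of 100% or more of it. Of the 992 genes with a Q140 effect of at least 0.5 on the log2 scale, these were 602 (60.7%) and 870 (87.7%). A return of 25% or more was excluded for fewer, 58 (38.9%) of the 149 and 301 (30.3%) of the 992. In the other direction, an increase of 50% or more of the Q140 effect was excluded for 123 (82.6%) of the 149 and 661 (66.6%) of the 992. For the remaining genes the depth and the spread between mice did not exclude such a change, which does not show that it took place.

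DNA repair genes were read as the pathway of Polq. Among 19 tested genes of theta-mediated end joining 0 were called in edgeR and 0 had an unadjusted p under 0.05, with differences from -0.081 (Nbn, of the complex that senses broken ends) to 0.069 (Rad9a, of the checkpoint clamp) and a median of 0.014. Parp1, the poly(ADP-ribose) polymerase that recruits this route, had 79.5 CPM on average in libraries labelled Q140 Polq+/- and 78.4 CPM in those labelled Q140, and the ligase Lig3, which seals its joins, had 46.6 CPM in libraries labelled Q140 Polq+/- and 46.1 CPM in those labelled Q140. The 14 classical end joining genes had a median of -0.022 and 0 calls, with 1 at an unadjusted p under 0.05: Rif1, which shields broken ends from resection, at 34.5 ± 1.98 CPM in libraries labelled Q140 Polq+/- and 37.3 ± 1.77 CPM in those labelled Q140 (-0.11, unadjusted p = 0.0255 in edgeR). The 21 homologous recombination genes had a median of 0.031 and the 21 other DNA polymerases a median of 0.033, with 0 called in each.

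The 20 tested genes that modify CAG repeat instability, chiefly mismatch repair, had a median of -0.0051 and 0 calls in edgeR, with 0 at an unadjusted p under 0.05. Msh3, whose protein recognises looped-out repeats, had 27.6 CPM on average in libraries labelled Q140 Polq+/- and 27.5 CPM in those labelled Q140 (0.0019, interval -0.097 to 0.10). The nuclease Fan1 differed by 0.060 (interval -0.043 to 0.16). The 25 p53 target genes, which rise with DNA damage, had a median of -0.017 and 0 calls.

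Over all 27 lists, 416 different genes were tested, of which 0 were called in edgeR and 13 (3.125%) had an unadjusted p under 0.05, beside 3.34% of all genes. DESeq2 called none of them either. The 20 interferon and DNA sensing genes had a median of -0.062, with 3 lower at an unadjusted p under 0.05: Usp18, a negative regulator of interferon signalling, the kinase Tbk1 and the RNA sensor Oas1a. Tbk1 had 52.7 ± 1.31 CPM in libraries labelled Q140 Polq+/- and 55.9 ± 1.97 CPM in those labelled Q140 (-0.085, unadjusted p = 0.0115, adjusted p = 1 in edgeR). The 20 immediate early genes, which follow neuronal activity, had a median of 0.089, the 16 circadian genes a median of -0.013, the 22 clustered beta protocadherins a median of 0.039, the 15 Polycomb and developmental genes a median of -0.0070, the 20 cholesterol synthesis genes a median of 0.012 and the 18 heat shock genes a median of -0.049. No list of these had a called gene.

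Markers of other cells overlapped between the groups in their summed levels. Oligodendrocyte, oligodendrocyte precursor, astrocyte, microglia, endothelial, mural, interneuron, cortical neuron and thalamic and cerebellar lists had medians between -0.030 and 0.035, with 0 called. Summed astrocyte markers ran from 4163 to 4505 CPM in libraries labelled Q140 Polq+/- and from 4151 to 4496 CPM in those labelled Q140. Summed microglia markers ran from 527 to 617 CPM in libraries labelled Q140 Polq+/- and from 513 to 572 CPM in those labelled Q140. Choroid plexus and blood varied more between mice. Summed choroid plexus markers ran from 31.8 to 68.5 CPM in libraries labelled Q140 Polq+/- and from 29.4 to 47.2 CPM in those labelled Q140 (list median 0.23). Summed globins, before TMM scaling, ran from 0.0286 to 21.2 CPM in libraries labelled Q140 Polq+/- and from 0.488 to 69.4 CPM in those labelled Q140 (blood list median -1.55). No gene of either list was called, and their part in any result was not tested.

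Females and males were compared last. In females the Polq label was called for 5 of the 10 genes (Fbxo40, Mylk, Cd47, Ccdc80, Sema5b) and in males for 5 (Fbxo40, Mylk, Cep97, Slc35a5, Pcnp), and all 10 genes had the same sign in both sexes. With 4 mice against 4 the counts are smaller by design, and the difference between the sexes was called for 0 genes in edgeR (the smallest adjusted p was 0.809, and 578 genes had an unadjusted p under 0.05). The signature score differed by -0.028 in females (interval -0.12 to 0.073) and by -0.0086 in males (interval -0.086 to 0.065).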

How the data were processed

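RNA of 64 libraries, striatum and cortex of 32 mice, was extracted with a Qiagen RNeasy kit and made into TruSeq stranded libraries, per the labels' protocols. Reads were processed with STAR 2.7.5c, SAMtools 1.10 and HTSeq 0.12.3 on GRCm38, per the submitters' processing notes, with no strand setting stated there. The authors deposited raw gene-level counts, not normalized, for 48795 genes, and the tables had 0 columns of other samples. The deposited FPKM values are counts scaled by the authors to gene length and library size, and they served only as an alternative. Groups, sex and replicate numbers came from the titles.

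Counts of the 32 striatal libraries were fitted together in edgeR 4.0.16 (R 4.3.3; TMM scaling, filterByExpr by genotype, robust quasi-likelihood, genotype and sex as terms), and the comparison was a contrast. Adjustment was by Benjamini-Hochberg over all 18270 tested genes, with calls under 0.05. SEs came from the F statistic, and intervals (95%) from the t quantile. Cortex was fitted apart. CPM are TMM-scaled, except in the library correlations, the tissue and sex checks and the globin sums, and positions come from GENCODE on GRCm38. The scripts were tested on simulated data. The members, the gene lists and the naming rule were chosen with earlier results of these data known. Named were Polq and Htt, every called gene, the 10 smallest p in each direction among genes of at least 1 CPM, the 10 largest Q140 rises and falls (called, at least 1 CPM, predicted genes left out), 10 spiny neuron and Q140 genes, up to 4 members of each list by smallest p (not all are printed) and the neighbours of Polq. Parp1, Lig3, Msh3, Fan1 and Pgk1-rs7 were named outside that rule, after their values were seen.

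Same-numbered mice of the same sex were not paired by the labels. Alternatives were DESeq2 1.42.0, its size factors, limma 3.58.1 (voom, or trend on log2 FPKM plus 0.1 or 1), no low-count filter, only the 16 libraries, no sex term, replicate and plate terms, a random block by mouse-name prefix, a surrogate variable (sva 3.50.0), a threshold of 0.1, each sex alone, and leaving out libraries. Leaving out 3 libraries or Polq+/- male 3 in the comparison without Q140, and wild-type male 2 for Cbln3, was chosen after seeing the data. Signature scores were also made with 100, 500 or all called genes.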

Additional observations from a re-analysis of the deposited data

Results flagged for a closer look

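Each group of 8 was searched for a single library far from the rest, by Dixon's test of the gap to the nearest library over the range of the group. Chance marks about 1 in 20 groups, and 3 of 86 groups were marked. The signature score of Q140 Polq+/- female 2 was 0.812, above the other 7 libraries of its label. Cep97 was lowest in Q140 female 4, at 37.6 CPM, where the other 7 libraries labelled Q140 had 41.8 to 43.7 CPM. Ipcef1 was highest in Q140 female 2, at 10.5 CPM, where the other 7 had 8.42 to 9.33 CPM.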

How the results depend on the processing

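The 10 calls held in full under DESeq2, its size factors, limma voom, both FPKM scales, no low-count filter, no sex term, a surrogate variable, the prefix block and leaving out the 3 libraries that stood apart, with 10 to 13 genes called. Sema5b and Tmem45a2 were not among the calls with the 16 libraries alone (8 called), nor was Cd200 with the plate column (9) or without the 3 mice of lowest Polq (9). Tmem45a2, near the detection limit, had a value under 31 alternatives, where Sema5b and Cd200 had a value under 32. Leaving out 1 library at a time gave 9 to 11. Females alone gave 5 and males alone 5, which have fewer samples by construction. Same-numbered mice were not paired (2 of 8 pairs correlated above 0.1, with a median of 0.030 after group means were removed, and 3 of 8 matched their own number best). With the replicate block 11 genes were called, all 10 and Gm7887, the Polq log2 fold change was -1.29, and the score difference was -0.018 (exact sign-flip p = 0.242). Without Q140, leaving out the 3 libraries gave 4 genes in place of 9, and leaving out Polq+/- male 3 gave 6. The Q140 effect of Cbln3 turned from -3.09 to 0.76 without the 3 libraries and 0.80 without wild-type male 2.

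Polq ran from -1.32 to -1.02 when single libraries were left out and passed the threshold only with log2(FPKM + 1) (-0.22, adjusted p = 0.0208). The score difference stayed between -0.028 and -0.0041 under 29 alternatives, and 72.3% to 96.7% of genes lay inside ±0.5 under the 5 run for the bounds.

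Differences near 0 changed sign. Males alone gave -0.038 for Ddit4l, -0.034 for Drd2, -0.0089 for Adora2a, -0.00082 for Ppp1r1b and -0.020 for Pde10a, and females alone 0.020 for Drd1. Without the 3 mice Ddit4l was -0.033 and Drd2 -0.0041, and with the plate column Drd2 was -0.0015. Leaving out 1 library gave -0.022 to 0.038 for Ddit4l, -0.027 to 0.011 for Drd1 and -0.045 to 0.0027 for Penk. None of these was called under any alternative (adjusted p of at least 0.915), and the cause was not tested. Depth limits low genes such as Polq, at 6 to 120 counts per library.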
